A study of Homo sapiens with 9 samples.

Results

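The EGF receptor family and its ligands were followed through RNA-Seq libraries of 3 related colon cancer cell lines. The group holds 10 genes of the 63677 in the count files and was set by name, without use of their values. There are 4 receptors (EGFR, ERBB2, ERBB3 and ERBB4) and 6 ligands (AREG, EREG, BTC, HBEGF, TGFA and NRG1). SW480 is an established human colorectal adenocarcinoma line in which the BASP1 gene is silent, and the question was how its transcriptome changes when BASP1 is expressed. SW480-B is 1 single-cell clone of SW480 that carries the BASP1 coding sequence behind a CMV promoter and was selected with geneticin. SW480-gRNA-B-all (Bsg) was made in 3 lentiviral steps. An MS2-P65-HSF1 activator came first, selected with hygromycin B. A nuclease-dead Cas9 activator with GFP followed, in a line grown from a single GFP-positive cell. Pooled guide RNAs to the BASP1 promoter came last, selected with puromycin. The SW480 libraries come from untransfected cells, so expression of BASP1 cannot be told apart from cloning, vectors and drug selection in any comparison with SW480. All lines were grown in Leibovitz L-15 medium with 10% FBS, and each line had 3 libraries. The labels give the treatment BASP1 activation to every sample, SW480 included, so the lines were taken from the sample titles. Nothing states that the triplicate RNAs came from separate cultures, so the p-values measure only the spread between these libraries, which may be technical.

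ERBB receptors are membrane tyrosine kinases that signal as pairs. EGFR binds TGFA, amphiregulin (AREG), epiregulin (EREG), betacellulin (BTC) and HBEGF, ERBB3 and ERBB4 bind neuregulins such as NRG1, and ERBB2 has no known ligand of its own and acts as a partner. The ligands are made as membrane proteins, released by ADAM proteases, and the receptors drive the RAS-ERK cascade. In colorectal cancer EGFR is a drug target, and AREG and EREG are studied as markers of dependence on it.

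EREG, AREG and BTC are neighbours on chromosome 4. In GRCh37, EREG lies at chr4:75230862-75254466 and AREG at chr4:75310853-75320722, both on the plus strand with 56.4 kb between them, and BTC lies at chr4:75669969-75719733 on the minus strand. EGFR lies at chr7:55086710-55279321 on the plus strand. The 250 bases before the RefSeq start site (GRCh38.p14, 5′ to 3′ on the gene's strand) are shown for EREG, AREG and EGFR. The levels of EREG and AREG varied together across the libraries. EGFR ran the other way within SW480, whereas in SW480-B and in Bsg it was highest in the same library as EREG and AREG. Capitals mark exact matches, on either strand, to an AP-1 motif (TGANTCA), a CRE (TGACGTCA), a TCF/LEF motif (CTTTGA), a GC box (GGGCGG) or a TATA box (TATAAA).
EREG, chr4:74364895-74365144: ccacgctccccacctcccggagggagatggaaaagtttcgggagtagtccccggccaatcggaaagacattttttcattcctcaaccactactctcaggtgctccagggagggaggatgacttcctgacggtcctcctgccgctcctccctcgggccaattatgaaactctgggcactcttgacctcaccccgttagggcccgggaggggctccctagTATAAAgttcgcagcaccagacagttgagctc
AREG, chr4:74444886-74445135: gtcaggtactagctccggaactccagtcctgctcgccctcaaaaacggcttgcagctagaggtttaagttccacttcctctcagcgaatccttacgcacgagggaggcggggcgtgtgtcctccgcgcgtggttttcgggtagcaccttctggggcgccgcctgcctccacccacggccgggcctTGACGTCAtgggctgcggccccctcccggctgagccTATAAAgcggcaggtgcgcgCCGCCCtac
EGFR, chr7:55018767-55019016: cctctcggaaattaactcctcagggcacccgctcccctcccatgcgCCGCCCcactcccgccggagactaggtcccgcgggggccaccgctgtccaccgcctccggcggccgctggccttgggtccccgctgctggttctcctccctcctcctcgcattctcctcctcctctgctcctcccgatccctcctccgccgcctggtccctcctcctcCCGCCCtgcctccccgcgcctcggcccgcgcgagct
EREG and AREG each held a TATA box, at 32 and 29 bases before the start, a motif found in 10.7% of 35116 promoters of this length. AREG also held a CRE, found in 1.65% of promoters, and a GC box, found in 42.6%. The EGFR window shown, the first of 2 RefSeq entries for that gene, held 2 GC boxes and no TATA box. The other EGFR entry, at chr7:55109589-55109838, held 2 AP-1 motifs and 2 TATA boxes. None of the 3 windows shown held the AP-1 motif (6.57% of promoters) or the TCF/LEF motif (11.2%). These are matches of letters only. Of the 10 genes, 8 had an entry in the promoter table.

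The libraries held 25238831 to 29355669 counts on genes, and levels are given as CPM, counts relative to library size, scaled by TMM factors over all 9 libraries. A count of 3 corresponds to 0.102 to 0.119 CPM, which covers counting error only. BASP1 was at 11.9, 8.04 and 0.692 CPM in SW480, 268, 269 and 250.5 CPM in SW480-B and 167, 303.5 and 300.3 CPM in Bsg. Both BASP1-expressing lines lay above SW480 in every library and overlapped each other. BASP1 passed the test in both lines (adjusted p = 0.0293 and 0.025), although the call held in only 2 of 6 fits that left out 1 library in each comparison. Replicates of SW480 stood far apart, with 14.6% to 30.8% of genes differing by over 2-fold between any 2 of its libraries. In SW480-B the share was 13.4% to 17.4%, and between Bsg library 1 and the other Bsg libraries it was 11.1% to 11.3%. Libraries 2 and 3 of Bsg were much closer to each other than any other pair (2.08% of genes) but still differed beyond sampling noise and were counted as separate samples. Of the epithelial markers, EPCAM, KRT8, KRT18, KRT19 and CDH1 were present in every library, whereas KRT20, CDX1 and LGALS4 had at most 26 counts in any. The summed fibroblast markers reached 2.9 to 10.9 CPM and COL3A1 had no count in any library. Of these markers LUM had 188, 61 and 27 counts in SW480 and 0 to 1 elsewhere. It was called lower in both lines (adjusted p = 0.0276 in SW480-B and 0.0324 in Bsg, edgeR). COL1A1 was called higher in Bsg (log2 fold change 1.21, adjusted p = 0.0362, edgeR). Each of these calls held in 2 of 6 fits that left out 1 library. Within SW480, LUM was highest in library 1 and lowest in library 3, as were EREG, AREG and BASP1. Among the fibroblast markers DCN (4, 1 and 0 counts) had this order too. COL1A1 (3.52, 4.21 and 4.37 CPM), PDGFRB (0.483, 1 and 0.328 CPM), COL1A2 and PDGFRA did not. The part of LUM in the values of EREG and AREG was not tested. The summed leukocyte and endothelial markers were at 0.862 to 1.49 CPM in SW480 and 1.9 to 4.37 CPM in the other lines. VWF alone was at 0.82 ± 0.114 CPM in SW480, 2.38 ± 0.878 in SW480-B and 2.66 ± 1.46 in Bsg (SD, n = 3), not called. PTPRC had 3 to 6 counts in SW480 and 0 to 1 elsewhere, and CD3E had 2 to 7 in SW480, 4 to 25 in SW480-B and 0 in Bsg.

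The ERBB genes did not pass the test for a difference between the lines. A gene was called where edgeR's quasi-likelihood test gave an adjusted p under 0.05 over all genes tested and the change was above 2-fold. Between Bsg and SW480, 8 of the 10 genes had enough counts to test and 0 were called, with 6.55% of all genes tested called; 2 of the 8 had an unadjusted p under 0.05, against 28.4% of all genes, and DESeq2 called 1, AREG (13.0% of all genes). Between SW480-B and SW480, 8 were tested and 0 were called by edgeR (1.34% of all genes), 2 had an unadjusted p under 0.05 (15.8% of all genes), and DESeq2 again called AREG alone (5.92% of all genes). Between Bsg and SW480-B, 7 were tested and 0 were called by edgeR (6.68% of all genes) and 0 by DESeq2 (9.13%), and 1 had an unadjusted p under 0.05 (24.4% of all genes). The libraries of Bsg and SW480 did not overlap for 2 of the 8 tested members (ERBB2 and ERBB3), against 38.0% of all genes tested. Those of SW480-B and SW480 did not overlap for 1 of the 8 tested (EGFR), against 22.4%. ERBB4, untested in both comparisons, did not overlap in either. Those of Bsg and SW480-B did not overlap for 2 of the 7 tested (ERBB2 and ERBB3), against 30.4%. The median log2 fold change of the tested members was 0.50, -0.18 and 0.02 in these comparisons, beside -0.054, -0.004 and -0.004 over all genes.

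**Figure D1:**
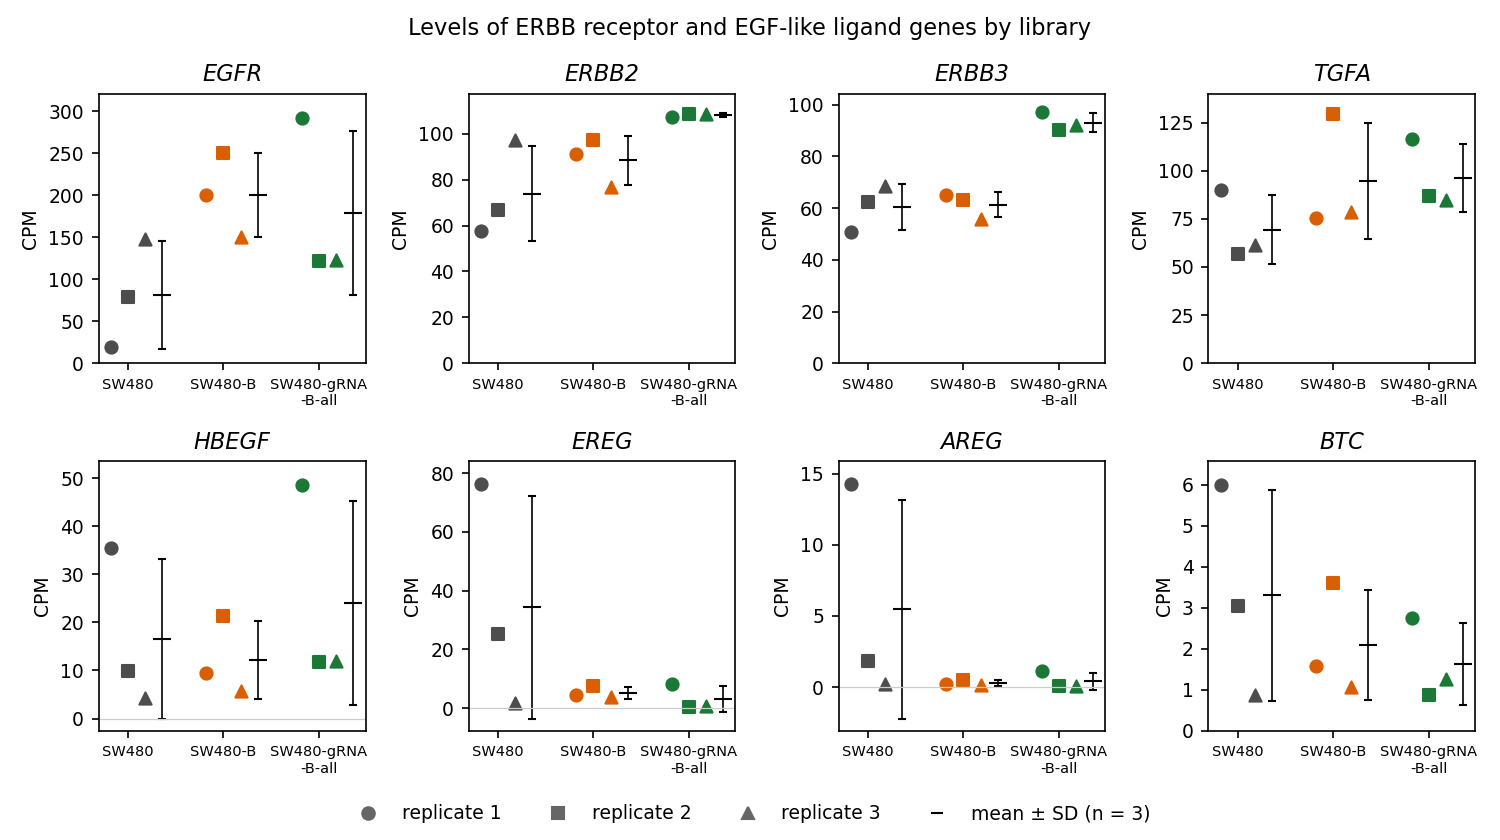
Levels in CPM (y axis, linear) of 8 receptor and ligand genes in each library of SW480 (grey), SW480-B (orange) and Bsg (green); symbols give the replicate and bars the mean ± SD of 3 libraries. EREG is high in SW480 libraries 1 and 2 and low in library 3. AREG falls from 14.3 CPM in SW480 library 1 to 1.86 CPM in library 2 and 0.218 CPM in library 3. EGFR runs the other way in that line, and ERBB3 lies at 90.1 to 97 CPM in Bsg, above all other libraries.

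EGFR, the receptor of most of these ligands, differed widely between libraries of 1 line. It was at 19.1, 78.4 and 147 CPM in SW480, 200.5, 250 and 149.9 CPM in SW480-B and 292, 122 and 123 CPM in Bsg. Every SW480-B library was above every SW480 library, by a narrow margin between 149.9 and 147 CPM, while Bsg overlapped SW480. Its log2 fold change was 1.33 (SE 0.60, adjusted p = 0.333, edgeR) in SW480-B and 1.13 (SE 0.70, adjusted p = 0.324) in Bsg. Leaving out 1 library moved it between 0.85 (without SW480 library 1) and 2.07 (without SW480 library 3) in SW480-B, and between 0.58 (without Bsg library 1) and 1.88 (without SW480 library 3) in Bsg, with no call. The 7.71-fold range within SW480 was wider than that of all but 3.57% of 16680 genes.

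ERBB2, the receptor that acts as a partner, and ERBB3, which depends on such partners for its kinase signal, varied less than EGFR within SW480 and Bsg, although the range of ERBB2 within SW480 was close to the median gene (52.2% of genes were wider). ERBB3 was at 50.7, 62.3 and 68.4 CPM in SW480, 65.2, 63.1 and 55.9 CPM in SW480-B and 97, 90.1 and 92.1 CPM in Bsg. All Bsg libraries were above all others, and the SW480 and SW480-B libraries overlapped. The log2 fold change of Bsg was 0.60 (SE 0.15, adjusted p = 0.0397, edgeR) against SW480-B, past the p threshold but under 2-fold; 8.76% of genes tested passed it at any size of change, and with libraries 2 and 3 of Bsg summed the adjusted p was 0.158. Against SW480 it was 0.62 (SE 0.16, adjusted p = 0.0601), with adjusted p between 0.00892 and 0.193 under the alternatives that left out no library. SW480-B differed from SW480 by 0.06 (SE 0.21).

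ERBB2 was at 57.8, 66.6 and 97.3 CPM in SW480, 91.3, 97.4 and 76.7 CPM in SW480-B and 107, 108.7 and 108.8 CPM in Bsg. The Bsg libraries were again above all others. The log2 fold change was 0.55 (SE 0.21, adjusted p = 0.151, edgeR) against SW480 and 0.29 (SE 0.15, adjusted p = 0.287) against SW480-B. Of 11 genes tested among the 17q12 neighbours of ERBB2, 2 were called lower in each line against SW480, beside 6.55% of all genes called in Bsg and 1.34% in SW480-B. PPP1R1B, an inhibitor of protein phosphatase 1, was at 17.9 ± 5.4 CPM in SW480, 0.0486 ± 0.0542 in SW480-B and 0.0224 ± 0.0194 in Bsg (SD, n = 3). PNMT, which makes adrenaline, was at 3.48 ± 1.06, 0.423 ± 0.155 and 0.135 ± 0.136 CPM (SD, n = 3). Its call held in 2 of 6 fits that left out a library in each comparison. Neither PPP1R1B nor PNMT had enough counts to be tested between Bsg and SW480-B. Both entered the test through SW480, where they were high, so their calls could only be lower and are no test of the region.

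ERBB4, a neuregulin receptor, had 42, 23 and 1 counts in the SW480 libraries and 0 counts in all 6 libraries of the other lines. It was too low to enter the test. With a floor of 3 counts over each group, its level was at least 21-fold lower in SW480-B and at least 21.8-fold lower in Bsg than in SW480, and at least 11.5-fold and 11.9-fold lower without SW480 library 1. SW480 library 3, at 1 count, was itself within the floor. NRG1, a ligand of ERBB3 and ERBB4, had 0 to 9 counts in every library and gives no comparison at this depth.

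EREG and AREG, ligands of EGFR, had the largest fitted fold changes against SW480, and the largest standard errors, among the tested members. EREG was at 76.1, 25.1 and 1.78 CPM in SW480, 4.37, 7.63 and 3.64 CPM in SW480-B and 8.27, 0.434 and 0.602 CPM in Bsg. SW480 libraries 1 and 2 were above all others, and library 3 lay below every SW480-B library. The log2 fold change was -2.69 (SE 1.01, adjusted p = 0.256, edgeR) in SW480-B and -3.47 (SE 1.52, adjusted p = 0.188) in Bsg. These sizes rest on single libraries. In SW480-B the change was -1.34 (adjusted p = 0.585, edgeR) without SW480 library 1 and -3.24 (adjusted p = 0.00861, called) without SW480 library 3. In Bsg it was -2.13 without SW480 library 1 and -6.03 without Bsg library 1, neither called.

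AREG was at 14.3, 1.86 and 0.218 CPM in SW480, 0.193, 0.499 and 0.141 CPM in SW480-B and 1.12, 0.0668 and 0.1 CPM in Bsg. SW480 library 3 had 6 counts and lay inside the range of both other lines. AREG had a log2 fold change of -4.24 (SE 1.34, adjusted p = 0.19, edgeR) in SW480-B and of -3.67 (SE 1.59, adjusted p = 0.185) in Bsg. DESeq2 called AREG in both (adjusted p = 0.00312 and 0.0316), and under the alternatives that left out no library the adjusted p ran from 0.00312 to 0.439 and from 0.0316 to 0.394. Without SW480 library 1 the change was -1.87 (adjusted p = 0.458, edgeR) in SW480-B and -1.29 (adjusted p = 0.557) in Bsg, whereas without SW480 library 3 AREG was called in SW480-B (-4.80, adjusted p = 0.0198). Without Bsg library 1 it was -5.95 in Bsg, not called. AREG is uncertain for a further reason: the annotation holds a near-identical copy, AREGB. Of the 150-base windows of the AREG transcript, 86.2% also occur in AREGB, which had 1 count in all 9 libraries together. With AREG and AREGB summed the change was -4.18 (adjusted p = 0.191, edgeR) in SW480-B and -3.67 (adjusted p = 0.185) in Bsg. Summing cannot recover reads matching both, if these were left out. The level of AREG, its place per kb and its ratio to EREG carry this uncertainty.

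Within SW480, the range of AREG over the 3 libraries was wider than that of all but 0.06% of 16680 genes, and that of EREG wider than all but 0.102%. The ratio of EREG to AREG counts stayed between 5.32 and 25.8 over the 9 libraries, whereas the ratio of EREG to EGFR counts was 3.98, 0.32 and 0.0121 in SW480 libraries 1, 2 and 3. It was 0.0218 to 0.0306 in SW480-B and 0.00357 to 0.0283 in Bsg. AREG was the sixth nearest of 16680 genes to EREG by the root mean square difference of centred log2 CPM (0.84 over 9 libraries), a neighbour list chosen after the values were seen. It was led by ALDH1L2 (0.67), XYLT1 (0.73) and CLDN1 (0.74). Nearest to EGFR were GBP3 (0.19), ZMYND11 (0.26) and ENSG00000238272 (0.26), while EREG ranked 16052.

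**Figure D2:**
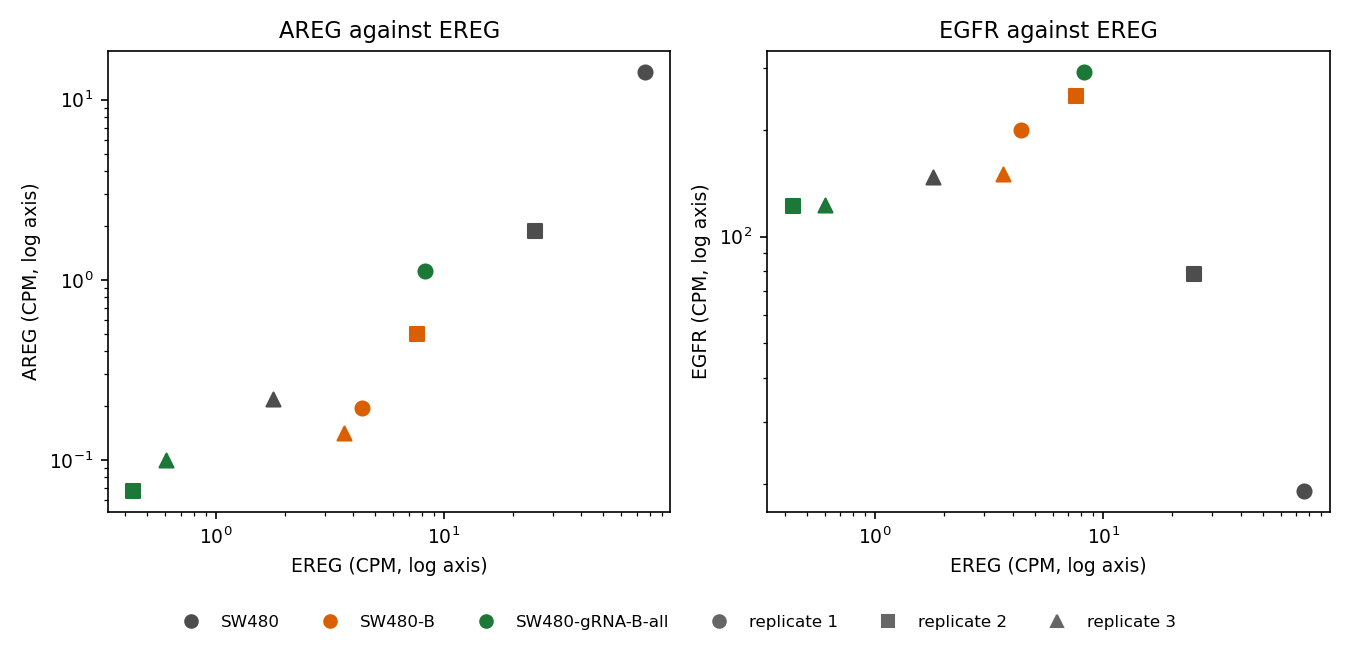
Levels of AREG (left) and EGFR (right) against EREG, in CPM on log axes, with 1 point per library, coloured by line and shaped by replicate. AREG is highest in the 2 libraries with the most EREG, SW480 libraries 1 and 2, and SW480 library 1, with the most EREG (76.1 CPM), has the least EGFR (19.1 CPM).

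BTC, which binds EGFR and ERBB4, was at 6, 3.04 and 0.874 CPM in SW480, 1.59, 3.6 and 1.06 CPM in SW480-B and 2.75, 0.869 and 1.27 CPM in Bsg, and the lines overlapped. Its log2 fold change was -1.03 (SE 0.74) in Bsg and -0.64 (SE 0.72) in SW480-B. The 4q13 list, which includes AREG, EREG and BTC, had 9 of 17 genes tested. Of these, 9 were below 0 in Bsg (median -1.03) and 8 in SW480-B (median -0.64), each median being the value of BTC itself. Over all genes the medians were -0.054 and -0.004, and 46.7% and 49.7% of genes were above 0. A gene low in Bsg or SW480-B could be tested only through its counts in SW480, so the counts below 0 are no test of the region. Of the 9 tested, 1 in Bsg (6.55% of all genes) and 0 in SW480-B (1.34%) were called by edgeR. DESeq2 called 3 in Bsg (13.0% of all genes) and 1 in SW480-B (5.92%). The gene called by edgeR was the chemokine gene CXCL3 in Bsg (log2 fold change -2.98, adjusted p = 0.0246, edgeR), at 0.135 ± 0.0347 CPM against 1.08 ± 0.532 CPM in SW480 (SD, n = 3), a call that held in 2 of 6 fits that left out a library.

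TGFA was the most abundant ligand per length of transcript in all 3 lines. It was at 89.8, 56.8 and 61.3 CPM in SW480, 75.6, 129.5 and 78.6 CPM in SW480-B and 116.5, 86.9 and 84.8 CPM in Bsg, and the lines overlapped. The overlap with Bsg rests on the scaling: with TMM factors taken from all genes, an alternative added after the values were seen, its lowest library (86.1 CPM) was above the highest of SW480 (85.3 CPM). TGFA had a log2 fold change of 0.47 (SE 0.23, adjusted p = 0.233, edgeR) in Bsg and 0.48 (SE 0.28, adjusted p = 0.449) in SW480-B. HBEGF, which also binds heparin, was at 35.5, 9.83 and 4.3 CPM in SW480, 9.52, 21.4 and 5.69 CPM in SW480-B and 48.6, 11.8 and 11.9 CPM in Bsg. Its fold changes were smaller than their errors against SW480, at 0.54 (SE 0.87) and -0.41 (SE 0.75).

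**Figure D3:**
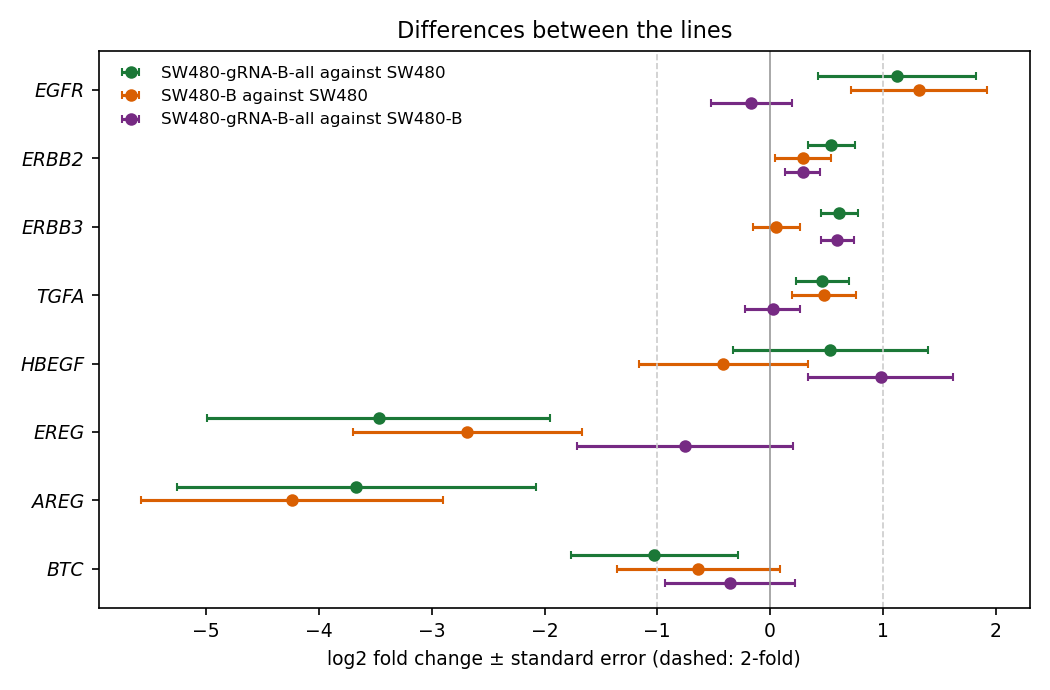
Log2 fold change ± standard error (x axis) of the tested receptor and ligand genes (y axis) in 3 comparisons, from edgeR fits over all genes; dashed lines mark 2-fold. EREG and AREG have the largest differences from SW480 and the widest errors, and ERBB3 has errors of 0.15 to 0.21.

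Per kb of the canonical transcript, TGFA (16.8 ± 4.35 CPM per kb, SD, n = 3) and ERBB2 (16.2 ± 4.55) led in SW480 and overlapped each other. ERBB3, EGFR, EREG, HBEGF, AREG and BTC followed, each overlapping the next. In SW480-B the order was TGFA (23 ± 7.36), EGFR (20.2 ± 5.05) and ERBB2 (19.4 ± 2.34), which overlapped, then ERBB3 and HBEGF, each apart from its neighbours. In Bsg, ERBB2, TGFA, EGFR, ERBB3 and HBEGF formed an overlapping series from 23.7 to 10.2 CPM per kb, apart from EREG at 0.672, BTC at 0.614 and AREG at 0.347.

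Of the other 5 EGF-like ligands, EGF, EPGN and NRG3 were too low to test. NRG2, a neuregulin, was at 0.621, 2.73 and 3.6 CPM in SW480, 6.34, 3.5 and 5.98 CPM in SW480-B and 6.68, 6.18 and 7.18 CPM in Bsg. Its log2 fold change in Bsg was 1.52 (SE 0.58, adjusted p = 0.145, edgeR), and DESeq2 called it (adjusted p = 0.042); every Bsg library was above every SW480 library. NRG4 was at or under 1.03 CPM in all libraries.

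Of 68 tested genes in 5 lists of the pathway, edgeR called 4 in Bsg against SW480 (5.88%, beside 6.55% of all genes). DESeq2 called 11, beside 13.0% of all genes. In SW480-B, 0 were called by edgeR (1.34% of all genes) among 9 sheddase and trafficking genes, 13 inhibitors, 19 adaptors, 12 genes of the RAS-ERK cascade and 16 ERK target genes. Of these 69, 12 had an unadjusted p under 0.05, beside 15.8% of all genes. DESeq2 called 6 of them (DUSP4, DUSP5, LRIG3, PHLDA1, PIK3R3 and SHC1), beside 5.92% of all genes. All 9 sheddase and trafficking genes were above 0 (median 0.42), as were 49.7% of all genes tested. In Bsg, 0 of 8 sheddase and trafficking genes and 0 of 12 cascade genes were called by edgeR. Of these, 1 and 4 had an unadjusted p under 0.05, beside 28.4% of all genes. DESeq2 called 0 and 1 (KSR1), beside 13.0% of all genes. Of 19 adaptors 1 rose, SHC1, which links receptors to RAS (201.5 ± 21.9 against 85.4 ± 24.7 CPM, SD, n = 3; adjusted p = 0.028, edgeR). Of 13 inhibitors 1 fell, LRIG3, at 0.0111 ± 0.0193 against 1.21 ± 0.575 CPM (SD, n = 3; adjusted p = 0.0139, edgeR). Of 16 ERK target genes 1 rose, the ERK phosphatase gene DUSP5 (log2 fold change 2.08, adjusted p = 0.0127, edgeR), and 1 fell, PHLDA1 (-2.46, adjusted p = 0.0407). These calls held in 1 to 3 of 6 fits that left out a library. The epithelial markers VIL1 and CDX2 were lower in Bsg as well (-4.44 and -3.28, both called), and VIL1 in SW480-B (-2.94, called). The calls in Bsg each held in 3 of 6 fits that left out a library, and that in SW480-B in 2 of 6. CDX2 was higher in SW480-B (0.875, not called), where 4 of 7 tested epithelial markers were above 0, beside 0 of 7 in Bsg. The part of these markers in the results was not tested.

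**Figure D4:**
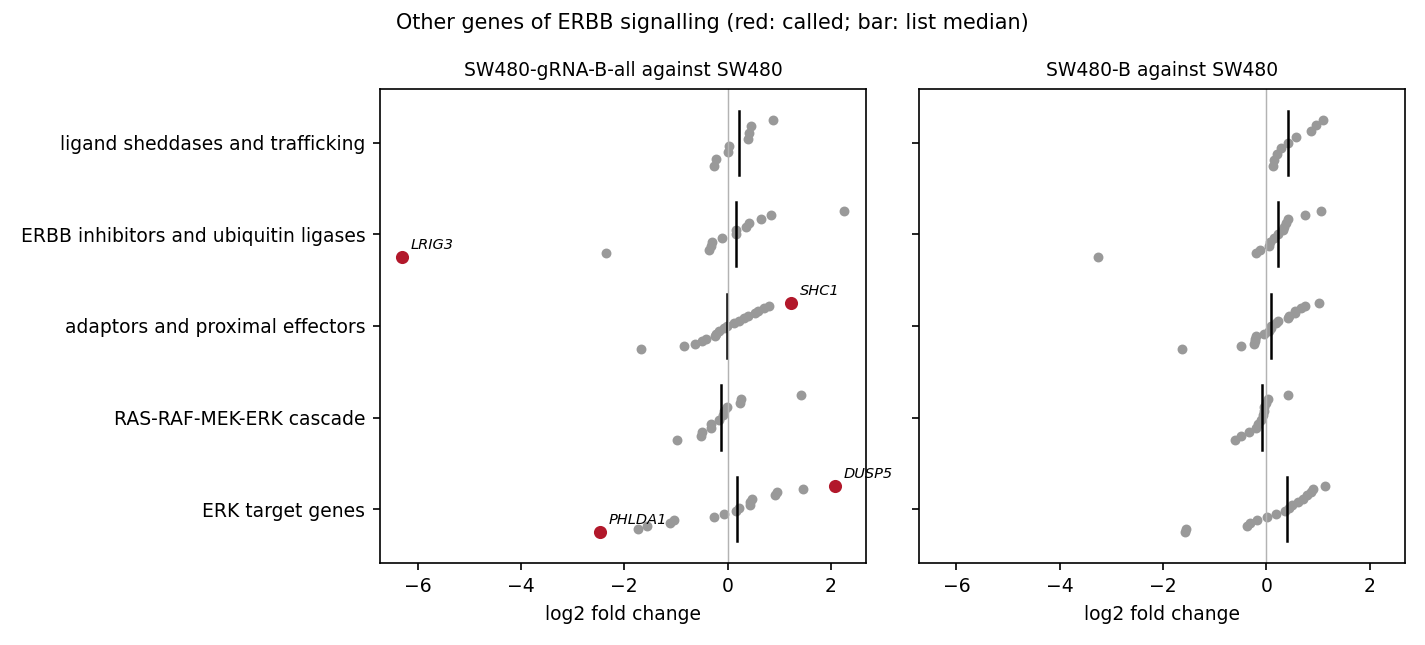
Log2 fold change against SW480 (x axis) of each tested gene in 5 lists of ERBB signalling genes (y axis) for Bsg (left) and SW480-B (right); red points are called genes and black bars list medians. There are 4 called genes on the left, SHC1 and DUSP5 to the right of 0 and LRIG3 and PHLDA1 to the left, and none in SW480-B.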

How the data were processed

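The 9 poly(A)-enriched stranded libraries were sequenced as pairs of reads. The authors deposited whole-number counts of reads per Ensembl gene for each library, not normalized; the labels name GRCh37, and the counting program is not given in the sources used here. Deposited sequencing metrics were not used. Reads on no gene (5.23% to 9.93%) or on more than 1 gene (3.09% to 3.44%) were left out. Of 63677 gene IDs, 55665 matched a symbol.

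Each pair of lines was fitted over its 6 libraries with edgeR 4.0.16 (filterByExpr with a least count of 10 and a least total of 15, TMM, robust glmQLFit, glmQLFTest, Benjamini-Hochberg over all genes tested), and the scripts were tested on simulated data. CPM values use TMM factors from the filtered genes over all 9 libraries. This choice of genes was made after values with factors from all genes had been seen, and both are given where they differ. Lengths are those of canonical transcripts in GENCODE v44 lifted to GRCh37. Alternatives were RLE factors, no filter, a filter of 1 CPM in 3 libraries, all 9 libraries in 1 fit, a replicate block, leaving out each library, DESeq2 1.42.0, no fold limit, AREG and AREGB summed, and libraries 2 and 3 of Bsg summed.

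Same-numbered libraries of SW480-B and SW480 deviated together (correlations 0.29, 0.322 and 0.393). With Bsg not every pair did (0.291, -0.0372 and 0.266 against SW480). Correlations between libraries of different numbers were not computed, so these values cannot establish pairs. The main fits used the line only, without pairing, and the replicate number entered only as an alternative. The genes and lists were chosen with earlier results of these data known. Genes named are the members, BASP1, the other EGF-like ligands, AREGB, up to 3 called genes per list and direction against SW480, and the 3 genes nearest to EGFR, since no member was called; the genes nearest to EREG, and genes named for DESeq2 calls or as markers, were chosen after their values were seen.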

Additional observations from a re-analysis of the deposited data

Results flagged for a closer look

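ERBB3 was flagged because its level differed between the BASP1-expressing lines themselves. The log2 fold change of Bsg against SW480-B was 0.598 (SE 0.15, adjusted p = 0.0397, edgeR), under 2-fold, and ERBB3 was higher in 3 of 3 Bsg libraries than in any SW480-B library. The change kept its sign in all 6 fits that left out 1 library, at 0.54 to 0.65, with adjusted p between 0.0464 and 0.169. The adjusted p was 0.00484 to 0.158 under the other alternatives, the highest with libraries 2 and 3 of Bsg summed, so the p threshold was not held throughout.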

How the results depend on the processing

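The count of members called against SW480 in Bsg was 0 by edgeR and 1 with DESeq2 (AREG), and 0 to 1 when a library was left out, ERBB4 being called without SW480 library 3. In SW480-B it was 1 with no filter (ERBB4), 1 with DESeq2 (AREG) and 0 to 3 when a library was left out, with AREG, EREG and ERBB4 called without SW480 library 3. Between Bsg and SW480-B it was 1 with no fold limit (ERBB3) and 0 to 1 when a library was left out, EREG being called without Bsg library 1 (log2 fold change -3.30, adjusted p = 0.0119, edgeR). Genes called over the whole table numbered 1055 for Bsg against SW480, 2100 with DESeq2, 97 with its libraries 2 and 3 summed and 8 to 2659 with a library left out (8 without SW480 library 2). For SW480-B against SW480 they numbered 216, then 735 with no filter, 143 with a filter of 1 CPM, 452 with all 9 libraries in 1 fit, 953 with DESeq2 and 0 to 921 with a library left out (0 without SW480-B library 1 or 2). Between the BASP1-expressing lines they numbered 1059, then 654 with all 9 libraries, 446 with libraries 2 and 3 summed and 420 to 1548 with a library left out. The cause of these shifts was not tested. With a library left out, signs turned for HBEGF in Bsg against SW480 (-0.48 to 1.77), for ERBB3 (-0.061 to 0.157), BTC (-1.27 to 0.11) and HBEGF (-1.07 to 0.80) in SW480-B against SW480, and for EGFR (-0.694 to 0.068), BTC (-0.93 to 0.29), HBEGF (-0.015 to 1.65) and TGFA (-0.12 to 0.31) between the BASP1-expressing lines, where EGFR also turned to 0.065 with libraries 2 and 3 summed. ERBB2 in Bsg was at 108 CPM, 111.9 CPM with no TMM factor and 109.2 CPM with factors from all genes. Members whose libraries did not overlap numbered 3 in Bsg against SW480 and 4 with factors from all genes, which adds TGFA.

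With the replicate number as a block, 1 member was called in Bsg against SW480 (AREG, log2 fold change -3.44, adjusted p = 0.0426, edgeR), where 2 of the 3 same-numbered pairs deviated together and 1 did not; the block changed no other call of a member. NRG1, with 0 to 9 counts, gives no comparison at this depth, and ERBB4 was tested only with no filter (adjusted p = 0.0304 in SW480-B and 0.0889 in Bsg, edgeR), with Bsg libraries 2 and 3 summed (0.174) or with a library left out.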
